A study of Mus musculus with 8 samples.

Results

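The corticosteroid receptor genes Nr3c1 and Nr3c2 and 8 genes that glucocorticoids induce, Sgk1, Tsc22d3, Fkbp5, Arl4d, Zbtb16, Ddit4, Errfi1 and Plin4, were examined in the medial prefrontal cortex (mPFC) of mice after retrieval of a drug memory. The genes were chosen by name, with earlier results of these data known, and all 10 were found among the 54532 genes of the count table. The data are RNA-seq libraries of adult male C57BL/6 mice: 4 of a retrieval group and 4 of a non-retrieval group, each from 2 to 3 mice pooled as 1 sample. Tissue was taken 1 h after the end of a test of conditioned place preference (CPP), in which an animal shows whether it prefers a compartment paired earlier with a drug, here methamphetamine (METH). No other genotype, drug dose or handling is given in the labels for either group, so entry into the apparatus, handling and retrieval of the memory cannot be told apart.

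Corticosterone, the main glucocorticoid of mice, enters brain cells and binds the mineralocorticoid receptor (Nr3c2) and, with lower affinity, the glucocorticoid receptor (Nr3c1). HSP90 and its co-chaperones hold the empty receptors in the cytoplasm. The bound receptors move to the nucleus, where they bind glucocorticoid response elements (GREs), a pair of short inverted repeats, and raise the transcription of target genes within hours. Several such targets are also induced by neuronal activity, and in the prefrontal cortex glucocorticoids are known to act on stress responses and on memory.

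Of the 10 genes, 6 rose in the retrieval group and none fell: Sgk1, Arl4d, Tsc22d3, Ddit4, Errfi1 and Plin4. A call needed an adjusted p under 0.05 in edgeR's quasi-likelihood test over 16745 tested genes, of which 4.57% were called in either direction, 3.67% as higher and 0.902% as lower. For the same 6 genes every retrieval library lay above every non-retrieval library, a separation in that direction that 6.59% of all tested genes showed. The median log2 fold change (retrieval over non-retrieval) was 0.40 over the 10 genes and 0.49 over the 8 induced genes, against -0.01 over all tested genes. Nr3c1, Nr3c2, Fkbp5 and Zbtb16 did not pass the test.

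The stretches before the start sites of 3 of the genes that rose are shown because they hold intact response elements. A GRE, searched on both strands as AGAACA and TGTTCT with any 3 bases (NNN) between them, was found in the RefSeq promoter windows (GRCm38.p6; 250 bases before to 50 after a start site) of Sgk1 alone among the 8 genes with a window. Nr3c1 and Zbtb16, which did not pass the test, had no window and were not searched. Of all 32851 windows, 3 held the GRE (0.00913%). The cyclic AMP response element (CRE), to which the activity-regulated factor CREB binds, was searched as TGACGTCA on both strands. It was found in 2 of the 16 windows of the 8 genes, against 1.79% of all windows. By gene that was 2 of 8, Arl4d and Errfi1, against 2.03% of all genes with a window. Capitals mark the GRE in Sgk1 and the CRE in the other 2 genes, and each stretch ends at the last base before the start site.
Sgk1, chr10:21993640-21993889, plus strand: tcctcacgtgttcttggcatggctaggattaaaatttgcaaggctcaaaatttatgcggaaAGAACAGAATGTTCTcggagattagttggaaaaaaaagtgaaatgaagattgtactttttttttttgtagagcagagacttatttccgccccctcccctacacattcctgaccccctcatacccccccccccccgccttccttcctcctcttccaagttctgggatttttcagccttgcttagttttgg
Arl4d, chr11:101665441-101665540, plus strand: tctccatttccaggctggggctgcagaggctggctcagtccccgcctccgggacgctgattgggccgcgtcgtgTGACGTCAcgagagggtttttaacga
Errfi1, chr4:150854970-150855069, plus strand: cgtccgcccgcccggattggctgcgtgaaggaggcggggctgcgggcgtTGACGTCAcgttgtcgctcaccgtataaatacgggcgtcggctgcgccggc

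The GRE of Sgk1 begins 189 bases before a start site at 21993890 on chromosome 10. It lies in no annotated exon and within 5 of the 13 GENCODE transcripts of Sgk1, so it is intronic for those 5, and the other transcripts do not span it. A looser form, GNACA and TGTNC with any 3 bases between them, occurred at the same place in Sgk1, in no other window of the 8 genes and in 0.475% of all windows. The hexamer TGTTCT alone, of which the GRE holds 2 on opposite strands, was found in 4 of the 16 windows of the 8 genes, against 19.0% of all windows. By gene that was 2 of 8, Sgk1 and Tsc22d3, against 21.3% of all genes with a window. The CRE begins 26 bases before the start site of Arl4d and 51 bases before the start site of Errfi1 at 150855070 on chromosome 4. Of the 3 GENCODE transcripts of Errfi1 1 spans its CRE, in no exon, and the transcript of Arl4d does not span its CRE. These matches describe letters in short windows, and the binding of receptors or CREB was not measured.

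Sgk1 encodes a kinase that controls ion channels and transporters and is induced by corticosteroids in many tissues. Its level was 94.8, 83.5, 97.4 and 85.4 CPM (reads scaled to the library's size) in retrieval replicates 1 to 4, against 50.7, 47.7, 44.9 and 47.6 CPM in non-retrieval replicates 1 to 4. All 4 retrieval libraries were far above the non-retrieval libraries, and the lowest of them exceeded the highest non-retrieval library by 32.7 CPM. Sgk1 was 1.89-fold higher in retrieval, a log2 fold change of 0.92 (SE 0.07), and ranked 11 by p among all tested genes (adjusted p = 4.05e-07 by edgeR). In GRCm38 the gene (ENSMUSG00000019970) lies on chromosome 10 from 21882184 to 21999903.

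Arl4d encodes a small GTPase of the ARF family that acts in membrane and actin traffic. It stood at 27.3, 27.4, 26.6 and 27.8 CPM in retrieval replicates 1 to 4, against 11.2, 12.3, 10.4 and 17.6 CPM in non-retrieval replicates 1 to 4. The retrieval libraries were nearly equal, with an SD of 1.81% of their mean, while non-retrieval replicate 4 was well above the other non-retrieval libraries. In edgeR the log2 fold change was 1.08 (SE 0.12; adjusted p = 5.69e-05), and it was 1.27 without non-retrieval replicate 4. The gene (ENSMUSG00000034936) lies on chromosome 11 from 101665541 to 101667832.

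Tsc22d3 encodes the glucocorticoid-induced leucine zipper GILZ, which restrains inflammatory transcription factors. It had 66.0, 62.2, 65.5 and 59.2 CPM in retrieval replicates 1 to 4, against 48.3, 41.9, 46.0 and 48.2 CPM in non-retrieval replicates 1 to 4. The groups were apart by 10.9 CPM at their nearest libraries. Its log2 fold change of 0.46 (SE 0.07; adjusted p = 0.000799 by edgeR) was smaller than that of Sgk1 or Arl4d. The gene (ENSMUSG00000031431) lies on the minus strand of chromosome X from 140539528 to 140600659.

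Ddit4 encodes REDD1, an inhibitor of the growth kinase complex mTORC1 that acts through TSC1 and TSC2. Its level was 44.3, 43.4, 49.1 and 41.0 CPM in retrieval replicates 1 to 4, against 26.8, 34.4, 27.6 and 34.0 CPM in non-retrieval replicates 1 to 4. Non-retrieval replicates 2 and 4 were higher than the other non-retrieval libraries, yet stayed below all retrieval libraries. This gave a log2 fold change of 0.53 (SE 0.09; adjusted p = 0.00244 by edgeR). On chromosome 10 the gene lies on the minus strand from 59949669 to 59951834.

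Errfi1 encodes MIG6, which binds the EGF receptor family and blocks its kinase activity. It had 32.7, 31.0, 34.1 and 31.8 CPM in retrieval replicates 1 to 4, against 26.4, 25.9, 24.8 and 25.7 CPM in non-retrieval replicates 1 to 4. Within each group the libraries lay close together, with an SD of 4.10% of the mean in retrieval and 2.54% in non-retrieval. Among the genes that rose, its log2 fold change was the smallest, at 0.34 (SE 0.07; adjusted p = 0.0111 by edgeR). It lies on chromosome 4 from 150853919 to 150868892.

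Plin4, a coat protein gene of lipid droplets, was the least abundant of the 10 genes per length. Its level was 3.37, 3.66, 2.53 and 1.45 CPM in retrieval replicates 1 to 4, against 1.37, 1.37, 0.784 and 1.25 CPM in non-retrieval replicates 1 to 4. Retrieval replicate 4 was only 0.0752 CPM above the highest non-retrieval library, and the values rest on 22 to 103 reads per library. In edgeR the log2 fold change was 1.21 (SE 0.27; 95% interval 0.63 to 1.78; adjusted p = 0.0180). This call ended when retrieval replicate 2 (edgeR adjusted p = 0.0507), non-retrieval replicate 3 (0.0770) or non-retrieval replicate 4 (0.0556) was left out, and in limma-voom (adjusted p = 0.0872). Plin4, on the minus strand of chromosome 17 from 56100591 to 56109803, shares 17 exonic bases with Hdgfl2 on the opposite strand, and whether counting used strand is not given in the sources used here.

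**Figure D1:**
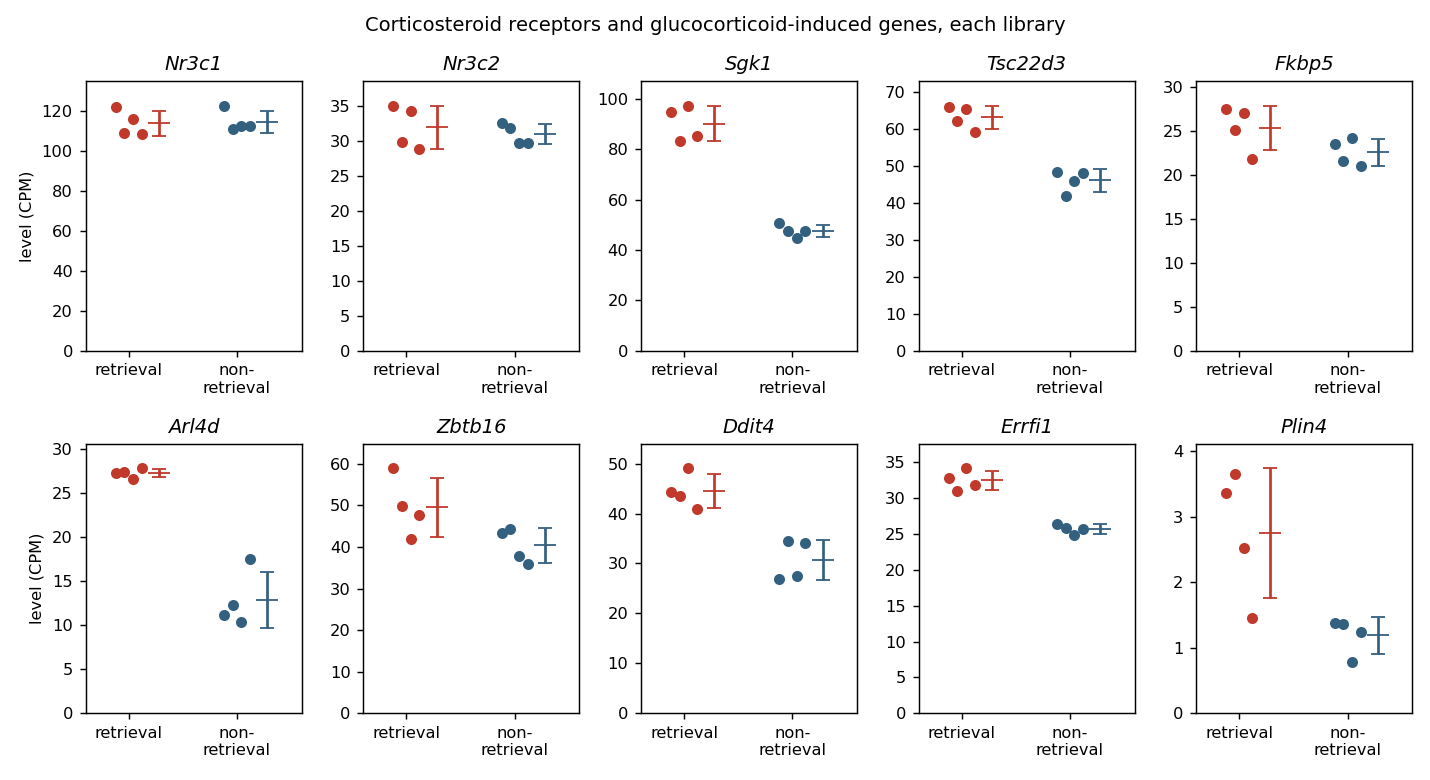
Level in CPM of each of the 10 genes in each library; points are libraries of the retrieval (red) and non-retrieval (blue) groups, and bars give the mean and SD of 4 libraries. The groups are apart for Sgk1, Tsc22d3, Arl4d, Ddit4, Errfi1 and Plin4, and overlap for Nr3c1, Nr3c2, Fkbp5 and Zbtb16.

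The receptor genes stood at similar levels in the groups. Nr3c1 had 122, 109, 116 and 109 CPM in retrieval replicates 1 to 4, against 123, 111, 113 and 113 CPM in non-retrieval replicates 1 to 4. Its log2 fold change was -0.01 (SE 0.06; edgeR adjusted p = 0.950), with a 95% interval of the fold from 0.905 to 1.09. Nr3c2 had 34.9, 29.8, 34.2 and 28.8 CPM in retrieval replicates 1 to 4, against 32.5, 31.8, 29.7 and 29.7 CPM in non-retrieval replicates 1 to 4. Its log2 fold change was 0.05 (SE 0.08; edgeR adjusted p = 0.807), with a 95% interval of the fold from 0.918 to 1.16. Changes of either transcript beyond these intervals were not seen, and smaller ones were not detectable with 4 libraries a group. Nr3c1 lies on the minus strand of chromosome 18 from 39410545 to 39491301, and Nr3c2 on chromosome 8 from 76899442 to 77245012, where 247 of its exonic bases are shared with the antisense gene Gm10649, which had at most 30 counts in a library. Receptor protein, its location in the cell and circulating corticosterone were not measured.

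Per length of the gene model, Nr3c1 was the more abundant receptor transcript in every library. The ratio of Nr3c1 to Nr3c2 reads per kilobase was 3.05, 3.19, 2.96 and 3.29 in retrieval replicates 1 to 4, against 3.30, 3.04, 3.31 and 3.30 in non-retrieval replicates 1 to 4. The groups overlapped, and the difference of the mean log2 ratios, retrieval minus non-retrieval, was -0.05 (p = 0.20, exact two-sided permutation test over 70 arrangements, whose smallest possible p is 0.0286). Pgr, the progesterone receptor gene, had a log2 fold change of -0.10, and Esr1, an oestrogen receptor gene, of 0.34. Neither passed the test (edgeR adjusted p = 0.539 for Pgr and 0.259 for Esr1).

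Fkbp5 encodes FKBP51, a co-chaperone that lowers the affinity of the glucocorticoid receptor for its hormone, and is among the genes most often read as a marker of receptor activity. It had 27.4, 25.1, 27.0 and 21.8 CPM in retrieval replicates 1 to 4, against 23.5, 21.5, 24.1 and 21.0 CPM in non-retrieval replicates 1 to 4. Retrieval replicates 1, 2 and 3 lay above all non-retrieval libraries, while retrieval replicate 4 lay among them. For Fkbp5 the log2 fold change was 0.17 (SE 0.09; 95% interval -0.02 to 0.35; adjusted p = 0.320 by edgeR). Zbtb16 encodes PLZF, a zinc-finger repressor of transcription. It had 58.9, 49.8, 41.8 and 47.8 CPM in retrieval replicates 1 to 4, against 43.5, 44.5, 37.8 and 36.0 CPM in non-retrieval replicates 1 to 4. Retrieval replicate 3 overlapped the non-retrieval group, and retrieval replicate 1 was the highest of all libraries. Zbtb16 had a log2 fold change of 0.30 (SE 0.10; adjusted p = 0.101 by edgeR), and it passed in edgeR without a low-count filter (adjusted p = 0.00963). Fkbp5 lies on the minus strand of chromosome 17 from 28399094 to 28517527, and Zbtb16 on the minus strand of chromosome 9 from 48654297 to 48836222.

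Within each library, the genes that rose were also set against Fkbp5, both per kilobase, a comparison chosen after the values were seen and given without a test. The ratio of Sgk1 to Fkbp5 was 6.43 to 7.55 in retrieval and 3.60 to 4.37 in non-retrieval. That of Arl4d was 6.76 to 8.73 in retrieval and 2.96 to 5.72 in non-retrieval, and that of Tsc22d3 was 5.25 to 5.91 in retrieval and 4.16 to 5.004 in non-retrieval. The groups were apart for these 3 ratios and for Plin4, and they overlapped for Ddit4, Errfi1, Zbtb16, Nr3c1 and Nr3c2. Sgk1, Arl4d, Tsc22d3 and Plin4 were already apart in CPM. The share of all tested genes whose ratio to Fkbp5 sets the groups apart was not computed.

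**Figure D2:**
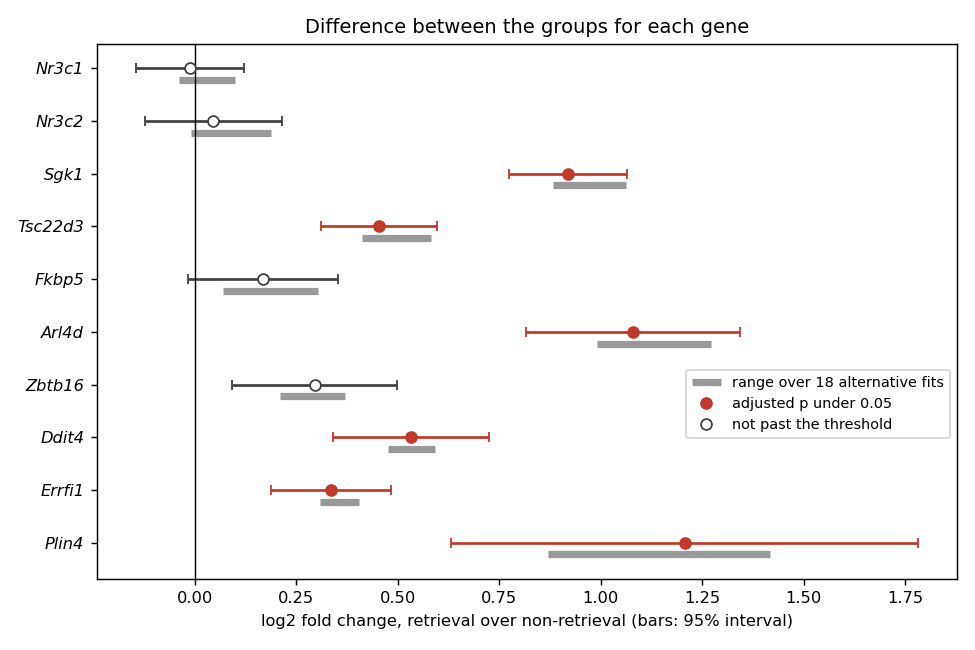
Log2 fold change (retrieval over non-retrieval) of each gene with its 95% interval from edgeR, filled red where the adjusted p was under 0.05; grey bars give the range of the estimate over 18 alternative fits. The ranges stay above 0 for the 8 induced genes, and those of Nr3c1 and Nr3c2 include 0.

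Levels were ordered per length as TPM (reads per kilobase scaled to a common sum). In retrieval, Ddit4 was highest with 91.7 ± 7.98 TPM, followed by Arl4d with 71.4 ± 1.80, Sgk1 with 66.7 ± 6.05, Nr3c1 with 55.6 ± 4.40 and Tsc22d3 with 52.7 ± 3.82 TPM (SD, n = 4). Zbtb16 at 34.0 ± 5.57, Errfi1 at 32.8 ± 1.69, Nr3c2 at 17.9 ± 2.09, Fkbp5 at 9.70 ± 1.18 and Plin4 at 1.73 ± 0.65 TPM came after them. Among neighbours in this order, the libraries overlapped between Arl4d and Sgk1, Sgk1 and Nr3c1, Nr3c1 and Tsc22d3, and Zbtb16 and Errfi1. In non-retrieval the order was Ddit4 (62.9 ± 8.20 TPM), Nr3c1 (55.6 ± 3.45), Tsc22d3 (38.2 ± 2.65), Sgk1 (35.02 ± 2.30), Arl4d (33.5 ± 8.24), Zbtb16 (27.5 ± 3.19), Errfi1 (25.8 ± 1.06), Nr3c2 (17.2 ± 1.07), Fkbp5 (8.56 ± 0.58) and Plin4 (0.74 ± 0.18 TPM; SD, n = 4). Here each neighbour overlapped the next from Tsc22d3 to Errfi1, as did Ddit4 and Nr3c1. Sgk1 and Arl4d thus stood above Nr3c1 by their means in retrieval and below it in non-retrieval.

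**Figure D3:**
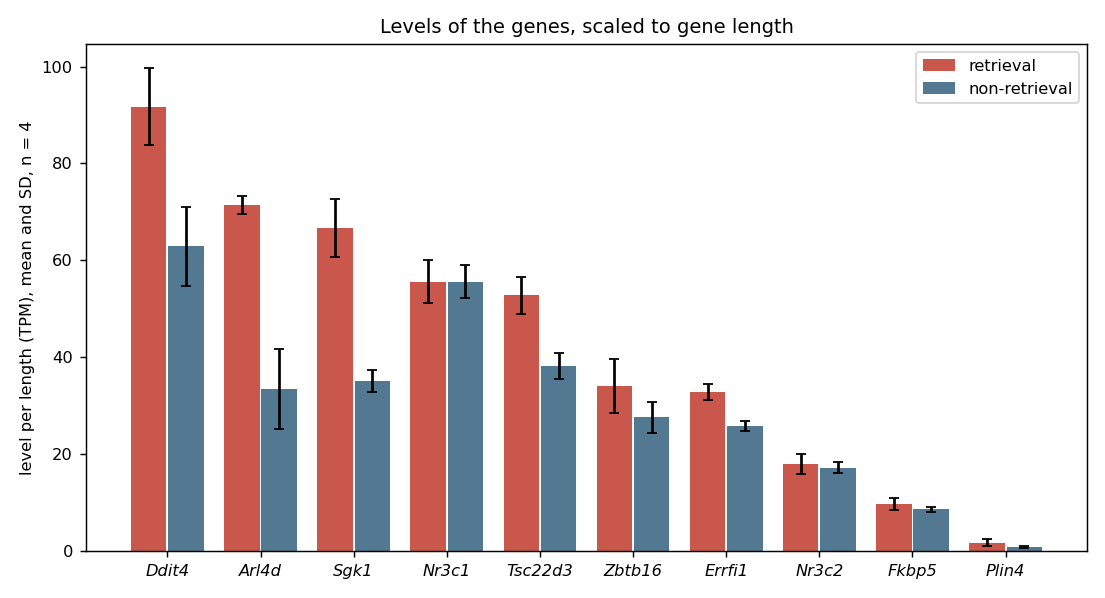
Level per gene length in TPM of the 10 genes, as mean and SD of 4 libraries, for retrieval (red) and non-retrieval (blue), ordered by the mean in retrieval. Nr3c1 is at 55.6 TPM in each group, and Sgk1 and Arl4d stand above it in retrieval and below it in non-retrieval.

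The libraries held 25013503 to 29547978 counts, and 22 to 3627 reads per library lay behind each value of the 10 genes. Excitatory neuron markers such as Slc17a7 and Camk2a summed to 6970 to 8257 CPM in retrieval and 7454 to 8098 CPM in non-retrieval, and none of these markers was at 0 in all libraries. Retrieval replicate 2 stood apart in markers of striatal projection neurons, the neurons beneath the mPFC, which summed to 754 CPM there, against 486 to 589 CPM in the other retrieval libraries and 460 to 550 CPM in non-retrieval. Without that library 5 of the 10 genes rose, all but Plin4 of the 6. In that fit 554 of 16981 tested genes were called, against 766 of 16745 with all libraries. Over all tested genes, 615 were called higher and 151 lower, and once length and GC were corrected by an offset 747 were called higher and 634 lower, the 6 genes among those higher.

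Myelin markers moved with the groups. The log2 fold change was above 0 for all 20 markers of oligodendrocytes and myelin (median 0.40), against 47.8% of all tested genes. Of the 20 markers 7 rose, where 3.67% of all tested genes were called higher. The count was 3 without retrieval replicate 2, and 3 to 14 with any 1 library left out. Over all genes, 554 were called without retrieval replicate 2, and 330 to 1360 with any 1 library left out. The summed level of the 20 markers was 4540 to 6543 CPM in retrieval, against 3775 to 4431 CPM in non-retrieval, with no marker at 0. Oligodendrocytes are known to express Sgk1, and in bulk tissue more cells of a type and more RNA per cell cannot be told apart. Within retrieval, replicates 2 and 4 had the most myelin transcript (6543 and 5958 CPM). Their Sgk1 levels (83.5 and 85.4 CPM) were the lower ones of the group, and their Plin4 levels (3.66 and 1.45 CPM) its highest and lowest. Whether these levels go with the myelin markers within the group was not tested. With the mean log2 CPM of these markers as a covariate, 4 of the 10 genes rose (Sgk1, Arl4d, Tsc22d3 and Ddit4), while Errfi1 had an adjusted p of 0.0568 and Plin4 of 0.157 in edgeR. In the same fit 187 of all 16745 tested genes were called, against 766 without the covariate. The fitted log2 fold changes were 0.41 (SE 0.10) for Errfi1 and 1.22 (SE 0.38) for Plin4 with the covariate. Without it they were 0.34 (SE 0.07) for Errfi1 and 1.21 (SE 0.27) for Plin4. The covariate was 6.075 to 6.58 in retrieval and 5.844 to 6.121 in non-retrieval, so it ran largely with the group. Endothelial and mural markers summed to 436 to 504 CPM in retrieval and 456 to 491 CPM in non-retrieval, astrocyte markers to 5273 to 6216 CPM in retrieval and 5119 to 5578 CPM in non-retrieval, and microglia markers to 375 to 445 CPM in retrieval and 416 to 440 CPM in non-retrieval, so that the groups overlapped in all 3 sums. Of 17 tested endothelial and mural markers Myh11 of smooth muscle rose (log2 fold change 0.35; adjusted p = 0.0401 by edgeR), where 3.67% of all tested genes were called higher. Of 10 interneuron markers Pvalb fell, with overlapping groups (-0.41; adjusted p = 0.0355 by edgeR), where 0.902% of all tested genes were called lower. Neither call held without retrieval replicate 2 or with the myelin covariate.

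**Figure D4:**
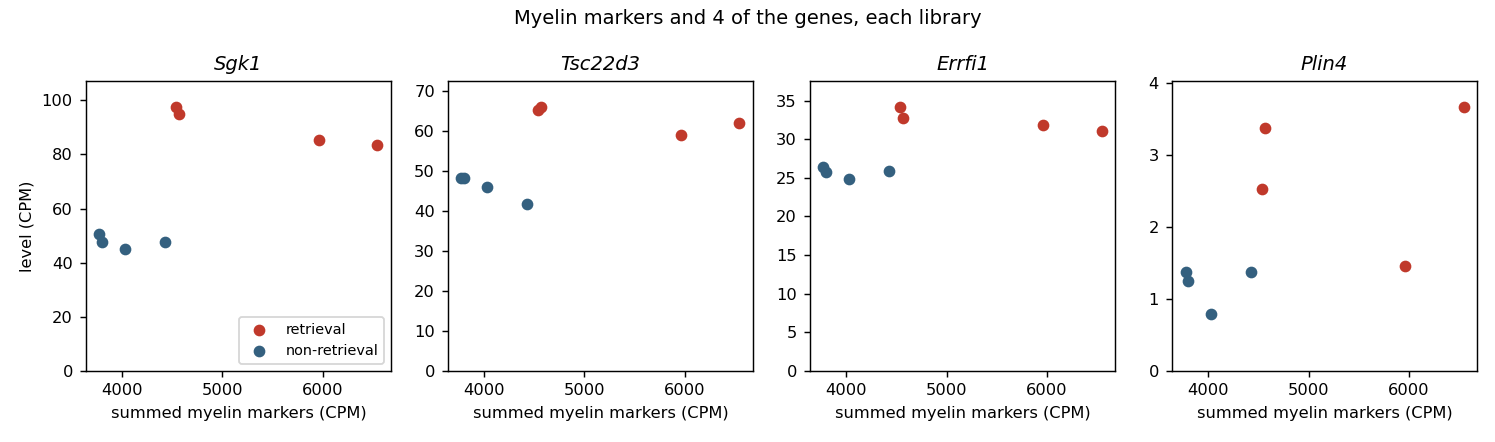
Level in CPM of Sgk1, Tsc22d3, Errfi1 and Plin4 (vertical) against the summed CPM of 20 myelin markers (horizontal) in each library, retrieval in red and non-retrieval in blue. Retrieval libraries lie at 4540 to 6543 CPM of myelin markers and non-retrieval libraries at 3775 to 4431 CPM. The 2 retrieval libraries with the most myelin transcript have the lower Sgk1 levels of their group and its highest and lowest Plin4 levels (3.66 and 1.45 CPM), an order that was not tested.

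Of 16 tested paralogs of the 10 genes, 1 rose and none fell (median log2 fold change 0.05), a share near the 4.57% of all tested genes that were called. Tsc22d2, a relative of Tsc22d3, was the gene that rose, at 56.1 ± 2.37 CPM in retrieval and 43.9 ± 1.97 CPM in non-retrieval (SD, n = 4), a log2 fold change of 0.36 with an SE of 0.06 (adjusted p = 0.00392 by edgeR). Its call ended with the myelin covariate, and 3 paralogs were called without retrieval replicate 1. Over all genes, 187 were called with that covariate and 1360 without retrieval replicate 1, against 766 in the main fit. The family members Tsc22d1 (0.05) and Tsc22d4 (0.12), the kinases Sgk2 (0.10) and Sgk3 (0.10), and the GTPases Arl4a (-0.13) and Arl4c (-0.10) had log2 fold changes that did not pass. Fkbp4 encodes FKBP52, which competes with FKBP51 on the receptor complex, and stood at 131 ± 8.93 CPM in retrieval and 126 ± 7.64 CPM in non-retrieval (SD, n = 4; log2 fold change 0.06; edgeR adjusted p = 0.684). Ddit4l, a second inhibitor of mTORC1 of the REDD family, stood at -0.34 on the same scale (adjusted p = 0.196 by edgeR). The other perilipin genes Plin2 (0.05), Plin3 (0.42) and Plin5 (0.35) did not pass, with an edgeR adjusted p of 0.0856 for Plin3.

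Of 34 other glucocorticoid-induced genes tested, 11 rose and none fell, where 3.67% of all tested genes were called higher. The log2 fold change was positive in 30 of the 34, against 47.8% of all tested genes, with a median of 0.19. Per1, a circadian period gene, had 185 ± 14.1 CPM in retrieval and 88.4 ± 9.21 CPM in non-retrieval (SD, n = 4; log2 fold change 1.07). Tiparp, an ADP-ribosyltransferase gene (0.95), Cdkn1a, a cell-cycle inhibitor (0.85), and Dusp1, a MAP kinase phosphatase (0.79), were the next by p. Among the others that rose were Hif3a (0.91), Nfkbia, the inhibitor of NF-kB (0.58), and the Krüppel-like factors Klf15 (0.34) and Klf13 (0.28). The metallothionein genes Mt1 (0.13) and Mt2 (0.19), Klf9 (0.11), Glul (0.12), Pdk4 (0.23) and Sesn1 (-0.002) did not pass; these and the last 4 that rose were chosen after their values were seen. The count was 7 without retrieval replicate 3, 7 without retrieval replicate 4, 5 without non-retrieval replicate 3 and 4 with the myelin covariate. Over all genes those fits called 420, 397, 331 and 187, in that order, against 766 in the main fit. Several of the 34 genes, Dusp1 and Per1 among them, are also early response genes of active neurons. Of 22 immediate early genes 20 rose (median 1.36), or 17 with the myelin covariate, and Dusp1 is counted in both lists. Npas4 (log2 fold change -0.06, edgeR adjusted p = 0.879) and Btg2 (0.06, edgeR adjusted p = 0.901) did not pass.

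**Figure D5:**
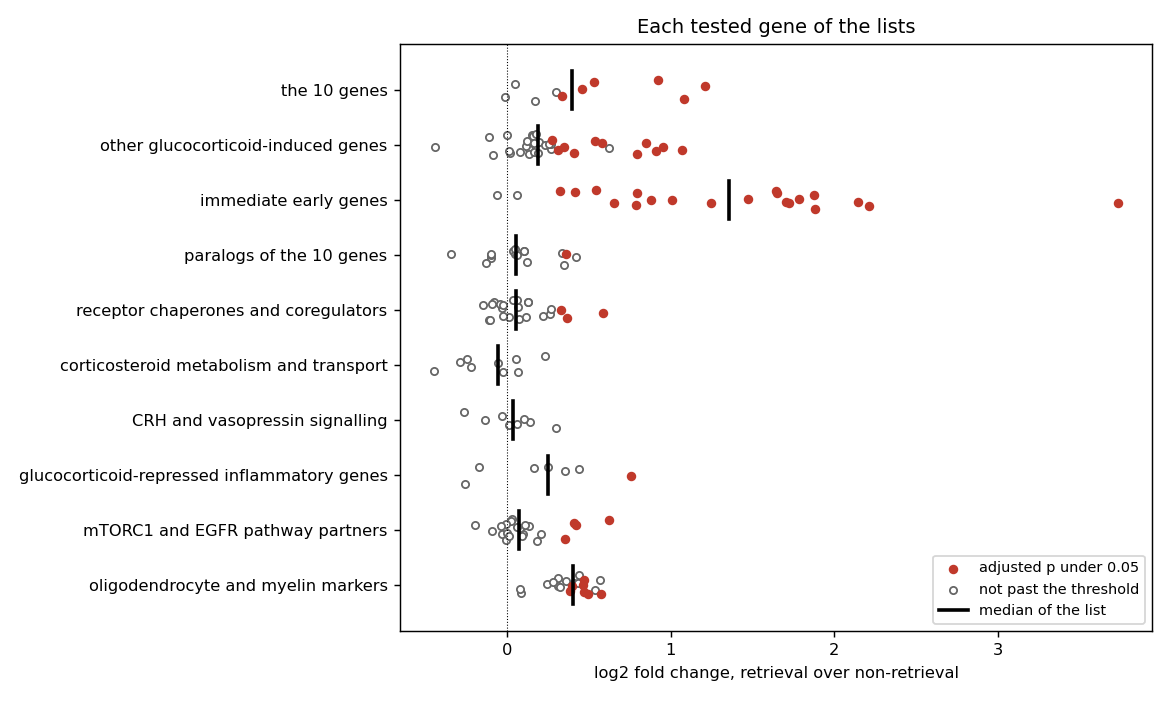
Log2 fold change (retrieval over non-retrieval) of each tested gene of 10 lists; red points passed an adjusted p under 0.05 in edgeR, open points did not, and black bars are the medians of the lists. The medians are 0.40 for the 10 genes, 0.19 for other glucocorticoid-induced genes, 1.36 for immediate early genes and 0.40 for myelin markers.

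The chaperones, coregulators, enzymes and upstream hormones of the receptors were counted likewise. Of 24 receptor chaperone and coregulator genes, 3 rose and none fell (median 0.06), where 3.67% of all tested genes were called higher; among the 3 were Dnajb1, an HSP40 co-chaperone (log2 fold change 0.58), and the acetyltransferase gene Ep300 (0.33). The count was 1 when retrieval replicate 3 or 4 or non-retrieval replicate 3 or 4 was left out, 1 with the myelin covariate, 5 without retrieval replicate 1 and 6 in DESeq2 and in limma-voom. Over all genes, 766 calls became 420, 397, 331 and 330 without those libraries in turn, and 187 with the myelin covariate. They became 1360 without retrieval replicate 1, 1014 in DESeq2 and 1619 in limma-voom. Crebbp, a relative of Ep300, stood at 0.26 (adjusted p = 0.0631 by edgeR). Of 9 tested genes of corticosteroid metabolism and transport none changed in edgeR, DESeq2 or limma-voom, where edgeR called 4.57% of all tested genes. With the length and GC offset 1 was called lower, where 634 of all 16727 tested genes were. The unadjusted edgeR p of Fkbp5, 0.0709, ranked 3706 among all 16745 tested genes, and the share under 0.05 was not computed. In edgeR 4 of the 9 genes had an unadjusted p under 0.05. Those 4 had negative log2 fold changes: Srd5a3 (-0.24), H6pd (-0.29), Cyp11a1 (-0.45) and Hsd11b1 (-0.22), the last of which encodes the enzyme that regenerates corticosterone in cells. Hsd11b1 had 11.9 ± 1.64 CPM in retrieval and 13.8 ± 0.64 CPM in non-retrieval (SD, n = 4; edgeR adjusted p = 0.254). Of 8 tested genes of CRH and vasopressin signalling none changed in edgeR, DESeq2 or limma-voom and none had an unadjusted p under 0.05, with Crh at 5.91 ± 0.31 CPM in retrieval and 5.36 ± 0.70 CPM in non-retrieval (SD, n = 4).

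Partners of Ddit4, Errfi1 and Sgk1 in the mTORC1 and EGF receptor pathways were also counted. Of 22 genes, 4 rose and none fell (median 0.07), where 3.67% of all tested genes were called higher. Egfr, a target of MIG6, had 16.9 ± 1.38 CPM in retrieval and 13.2 ± 1.16 CPM in non-retrieval, and its relative Erbb3 had 17.0 ± 2.68 CPM in retrieval and 11.1 ± 1.64 CPM in non-retrieval (SD, n = 4; log2 fold changes 0.35 and 0.62; edgeR adjusted p = 0.0371 and 0.00802). Ndrg1, a substrate of SGK1, had a log2 fold change of 0.42 and was highest in retrieval replicates 2 and 4 (97.9 and 98.1 CPM), the libraries with the most myelin transcript. Txnip, a regulator of glucose uptake and redox state, had a log2 fold change of 0.41. With the myelin covariate none of the 22 was called, 1 was called without non-retrieval replicate 3, and 2 when retrieval replicate 4 or non-retrieval replicate 2 or 4 was left out. Over all genes those fits called 187, 331, 397, 618 and 330, in that order, against 766 in the main fit. With the length and GC offset 4 of the 22 were called higher and 2 lower. Of the 22, 1 was called lower in DESeq2, in limma-voom, with upper-quartile factors, with the replicate block and without retrieval replicate 1. Over all genes, 634 were called lower with that offset and 193 to 517 in the other fits named, against 151 in the main fit. Mtor (0.09), Tsc1 (0.18) and Tsc2 (0.03), the complex through which REDD1 acts, and Nedd4l (0.06), a substrate of SGK1, did not pass and were named after their values were seen. Of 7 tested inflammatory genes that glucocorticoids repress in other tissues, Ptgs2, which neurons also induce with activity, rose (log2 fold change 0.76) and none fell. Of all tested genes 3.67% were called higher and 0.902% lower. In limma-voom 2 of the 7 were called, and 2 without retrieval replicate 1, where 1619 and 1360 of all genes were.

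The genes most like Sgk1 over the 8 libraries were Utp14b, Tiparp, Homer1, Atp7a and Dusp6. Likeness was the root mean square difference of log2 CPM, centred on each gene's mean, among 14327 protein-coding genes; it ran from 0.076 for Utp14b to 0.133 for Dusp6, against a median of 0.491. Utp14b had 14.3 ± 0.73 CPM in retrieval and 7.80 ± 0.60 CPM in non-retrieval (SD, n = 4), and Homer1, a synaptic scaffold gene, 296 ± 37.4 CPM in retrieval and 161 ± 6.30 CPM in non-retrieval (SD, n = 4). Among the 10 genes, Ddit4 (0.233), Arl4d (0.240) and Tsc22d3 (0.242) were nearest to Sgk1 and Nr3c1 (0.466) was farthest. This likeness includes the difference between the groups, so a gene that hardly differs, such as Nr3c1, is far from Sgk1 by construction.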

How the data were processed

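The deposited table holds unnormalized read counts of 8 libraries of mPFC RNA. Per the submitters' processing notes, HISAT2 2.0.5, featureCounts 1.5.0-p3 and the build GRCm38 were used; strand setting and annotation release were not given in the sources used here. Per the file headers, the table also holds each gene's length. Columns were matched to samples by title.

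Genes low in counts were removed with the default filterByExpr of edgeR 4.0.16 (R 4.3.3). Libraries were scaled with TMM factors and groups compared with the two-sided quasi-likelihood test and Benjamini-Hochberg adjustment over all tested genes. CPM used the same factors. The procedure was tested on simulated counts. Alternatives used DESeq2 1.42.0, limma-voom (limma 3.58.1), other factors and filters, a replicate block, marker covariates, a length and GC offset, and each library left out. GC content, from GENCODE M21 transcripts, covered 99.9% of tested genes. Promoter sequences and start sites are RefSeq's (GRCm38.p6), matched by symbol for 8 of the 10 genes.

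The genes, gene lists and alternatives were chosen with earlier results of these data known. The text names all 10 genes, up to 4 genes of each other list by smallest p, paralogs set beside their gene, and the 5 genes most like the called gene with the smallest p; any other gene was chosen after its values were seen. Some listed genes are not reported here. The pools of mice are the replicates, and p-values measure the spread between pools.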

Additional observations from a re-analysis of the deposited data

Results flagged for a closer look

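Of 22 groups of 4 libraries examined (the 10 genes and the receptor ratio in each group), 2 held a library far from the other 3, and chance marks about 1 in 20 such groups. Nr3c1 stood at 122.9 CPM in non-retrieval replicate 1, against 110.9 to 112.7 CPM in the other non-retrieval libraries. The ratio of Nr3c1 to Nr3c2 reads per kilobase was 3.04 in non-retrieval replicate 2, against 3.30 to 3.31 in the other non-retrieval libraries, and without that library the difference of the mean log2 ratios, retrieval minus non-retrieval, was -0.08 (exact permutation test, p = 0.0571).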

How the results depend on the processing

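Sgk1, Arl4d, Tsc22d3 and Ddit4 were called in all 18 alternatives and Nr3c1, Nr3c2 and Fkbp5 in none. Errfi1 was called in 17 of 18, Plin4 in 12 of 18, where its call also ended with the striatal covariate (log2 fold change 0.99; edgeR adjusted p = 0.0677), and Zbtb16 in 2. Between 4 and 7 of the 10 genes were called, and 5 to 6 with any 1 library left out, always as higher. Over all genes, 766 calls became 1619 in limma-voom, 1791 with the replicate block, 187 with the myelin covariate, 1381 with the length and GC offset, and 330 to 1360 with 1 library left out; the causes were not tested. The receptor ratio differed by -0.03 to -0.08 (log2) with 1 library left out and by -0.05 with the replicate block (exact sign-flip test, p = 0.375), which with 4 pairs cannot reach 0.05. No label says that equal replicate numbers mark a shared litter or day. Deviations of same-numbered libraries correlated at 0.0268 to 0.221, and every library correlated best with its own number, a hint from the data and not the design. With the block 7 of the 10 genes were called, Zbtb16 being added (edgeR adjusted p = 0.00446). Genes with few reads, such as Plin4, are the least precise.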
